A study of Arabidopsis thaliana with 6 samples.

Results

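The genes described here are plastid-encoded genes for the plastid's own gene expression, together with a few others outside photosynthesis. They were chosen by name, as every probe set that the platform annotation pairs with 1 plastid-encoded gene for a ribosomal protein (rpl, rps), an RNA polymerase subunit (rpo), matK, clpP, accD, ccsA, cemA or a ycf gene. The choice gave 26 probe sets for 26 genes, out of 22746 non-control probe sets and 13356 genes with a probe set of their own. There were 7 genes of the large ribosomal subunit, 8 of the small subunit, 4 of the RNA polymerase, 2 ycf genes and 1 each of the others. A further 7 probe sets match both copies of a plastid gene with such a symbol and were left out. Of these, 6 were lower with TNT, with a median log2 difference of -0.20.

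Whole seedlings of Arabidopsis thaliana, accession Col-0 and with no transgene named in the labels, were kept for 13 days in shaken flasks of 100 ml medium, 10 seedlings to each, with 16 h of light a day. The flasks then received 60 µM 2,4,6-trinitrotoluene (TNT), an explosive, dissolved in dimethylformamide (DMF), or 60 µl of DMF alone, and RNA was taken after 6 h. Each group had 3 ATH1 arrays, a small number that limits the precision. Whether the replicates are separate flasks is not given in the labels. If they are not, the spread behind the p-values leaves out variation between flasks and may be technical only.

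The plastid genome is read by 2 kinds of RNA polymerase. One is of bacterial type, with a core encoded in the plastid by the rpo genes and sigma factors encoded in the nucleus, and it reads most photosynthesis genes. The other is a phage-type enzyme encoded in the nucleus, which is known to read the rpoB operon and accD. Plastid messages are translated on bacterial-type ribosomes whose proteins come partly from the rpl and rps genes of the plastid and partly from the nucleus. Most plastid messages carry no stable poly(A) tail, whereas the labelling named in the labels starts from the 3′ end of RNA with oligo(dT), so signals of plastid genes depend on how their RNA was primed.

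The array labelled TNT replicate 2 stood apart from the other TNT arrays. Over the tested probe sets its log2 signals correlated at 0.975 with DMF replicate 2, and at 0.888 and 0.906 with TNT replicates 1 and 3. DMF replicate 2 also differed from its group, though less. It correlated at 0.932 and 0.952 with DMF replicates 1 and 3, which correlated at 0.969 with each other. GSTU25 (AT1G17180), a glutathione S-transferase that conjugates TNT, had log2 signals of 8.90 and 9.05 on TNT replicates 1 and 3 but 4.78 on TNT replicate 2. Results are therefore given over all 6 arrays and without TNT replicate 2. "Fell" is used only of genes called by limma, at an adjusted p under 0.05, in the comparison without that array. TNT replicate 2 was left out for its values, so those p-values can be too small. The same holds for the comparison without both arrays numbered 2. In whole seedlings, fewer plastid-rich cells and less plastid RNA per cell cannot be told apart.

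Of the 26 genes, 25 had a lower mean log2 signal with TNT than with DMF, but none passed the test over all 6 arrays. The exception was rps15, a small-subunit protein, at a log2 difference (TNT minus DMF) of 0.10. Of the 26, 24 passed the filter on low signal and were tested; rpoB and rps14 did not. The 24 had a median log2 difference of -0.39 with 23 lower, against a median of -0.02 and 52.3% lower over all 13648 probe sets tested. Without TNT replicate 1, 16 of the 24 were lower, with a median of -0.13. When each array was centred on the other plastid genes, 17 were lower with a median of -0.12, on a scale that moved the median of all tested probe sets to 0.26. In limma 0 of the 24 were called, and the percentage called over all probe sets was 0. At an unadjusted p under 0.05, 1 of the 24 was lower, against 4.15% of all probe sets. The range over the DMF arrays was wider than the difference between the group means for 22 of the 26 genes. This was not counted over all probe sets, so the 22 have no baseline. The median range over the DMF arrays was 0.89 on the log2 scale, against 0.42 over all probe sets tested, and over the TNT arrays 1.41 against 0.48. The plot of signal by array shows this spread.

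**Figure D1:**
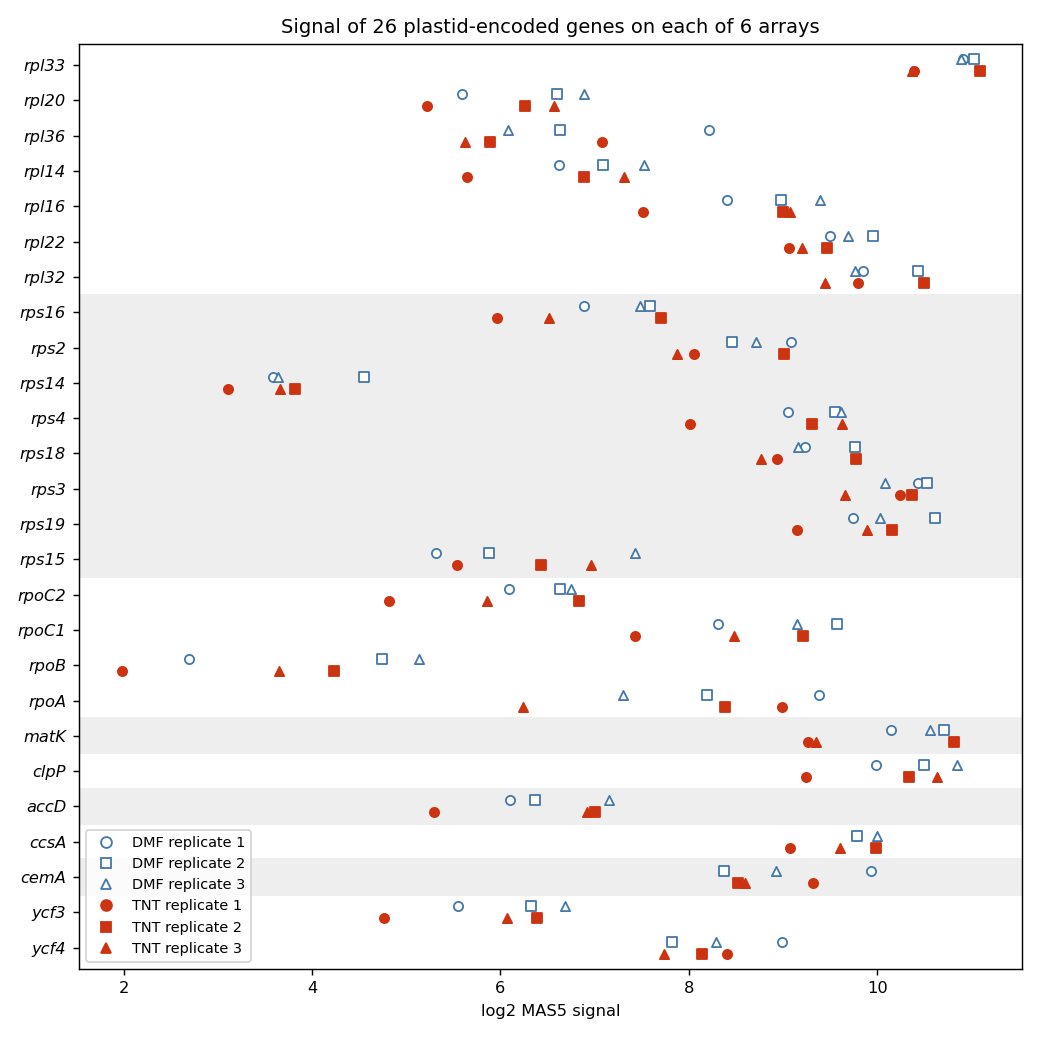
Log2 MAS5 signal (x axis) of the 26 genes (rows, banded by class) on each array; open blue symbols are DMF, filled red symbols TNT, and the symbol shape gives the replicate number. The DMF and TNT symbols overlap in every row except that of rpl22. Positions are to be compared within a row, since different probe sets are not on 1 scale.

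The differences were not alike in the 3 replicate pairs. In pair 1, 25 of the 26 genes were lower with TNT, with a median log2 difference of -0.71. In pair 3, 24 were lower, with a median of -0.44. In pair 2, which holds the TNT array that stood apart, 11 were lower and the median was 0.04. The medians over all tested probe sets were 0.0068, -0.0138 and -0.0190 in pairs 1, 2 and 3. TNT replicate 1 lay below all 3 DMF arrays for 19 of the 26 genes and TNT replicate 3 for 13. TNT replicate 2 did so for 2 genes, and lay above all DMF arrays for 6. Of all 13648 probe sets tested, TNT replicate 1 lay below all DMF arrays for 4497 and TNT replicate 3 for 4285. TNT replicate 2 lay below them for 2912 and above them for 3446.

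Lower signals in all 3 pairs were found for 9 of the 26 genes: rpl14, rpl20, rpl22, rpl36, rps3, rps19, rpoB, rpoC1 and clpP. Of those, 8 were among the 24 tested, against 20.7% of all probe sets tested. When limma took the replicate number as a block, the mean differences stayed as they were and 9 of the 24 were lower at an unadjusted p under 0.05, against 8.68% of all probe sets. These were rpl14, rpl20, rpl22, rpl36, rps16, rps19, rpoC1, matK and clpP. None passed after adjustment with the block, where the smallest limma adjusted p was 0.206. The block rests on a pairing that the sample titles do not state.

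**Figure D2:**
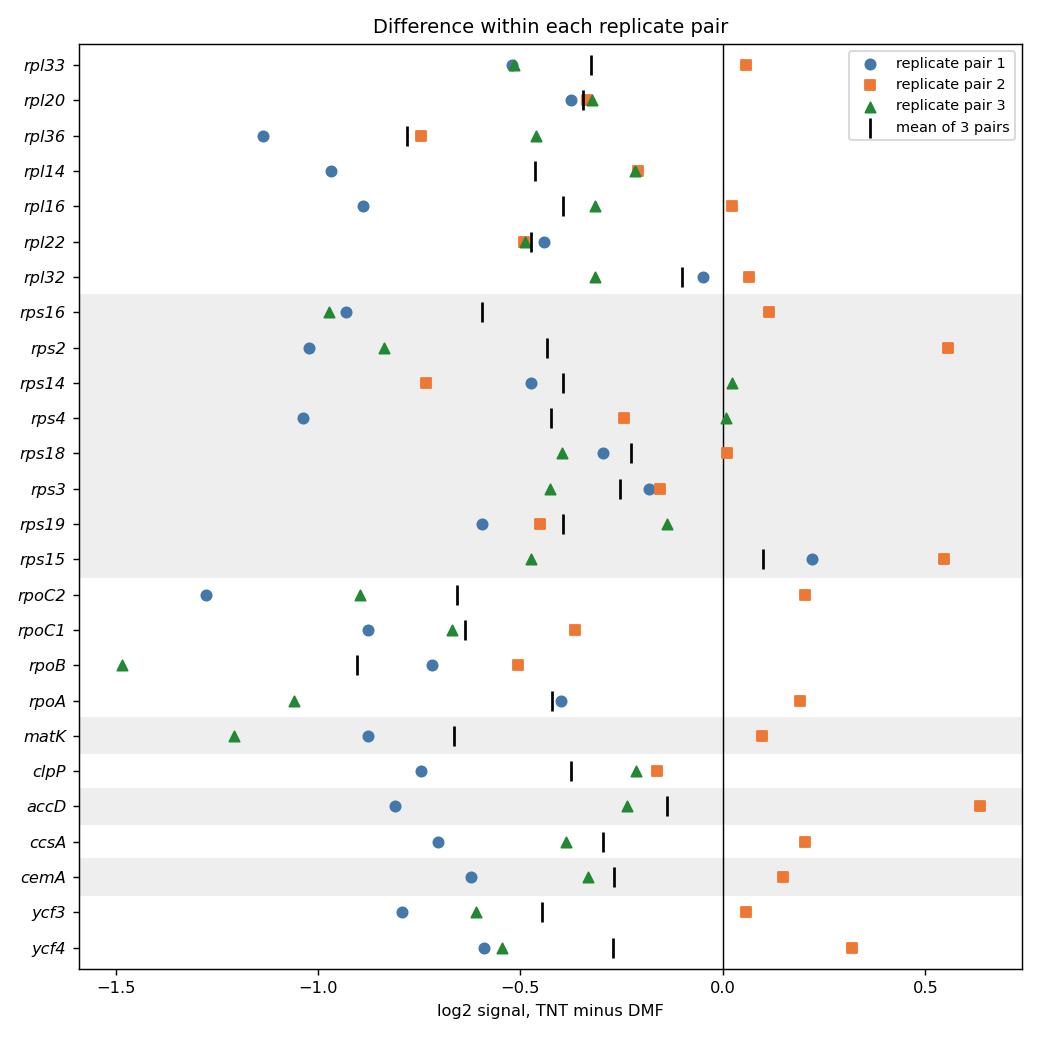
Difference in log2 signal, TNT minus DMF (x axis), within replicate pairs 1 (circles), 2 (squares) and 3 (triangles), for the 26 genes, with a black bar at the mean of the 3 pairs. Circles and triangles lie mostly left of 0, while 11 of the 26 squares do.

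The large ribosomal subunit was represented by 7 proteins, which had lower mean signals with TNT without exception, from -0.78 for rpl36 to -0.10 for rpl32, and a median of -0.39; rpl32 turned positive with plastid centring, and rpl14, rpl16 and rpl20 did so without TNT replicate 1. rpl22 (ArthCp062) had log2 signals of 9.50, 9.95 and 9.69 on DMF replicates 1, 2 and 3, and of 9.06, 9.46 and 9.20 on TNT replicates 1, 2 and 3. Every TNT array lay below every DMF array, and the pairs differed by nearly the same amount, -0.44, -0.49 and -0.49. It was the only one of the 24 tested genes whose groups did not overlap with TNT lower, which held for 6.07% of all probe sets. Its log2 difference over all 6 arrays was -0.47 ± 0.17 (SE, n = 3 a group), with a 95% interval from -0.88 to -0.07 and a limma adjusted p of 0.531.

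The DMF arrays gave rpl36 (ArthCp057) log2 signals of 8.21, 6.64 and 6.08 and the TNT arrays 7.08, 5.89 and 5.62. The replicates differed more than the treatments, since replicate 1 was the highest in both groups, but the TNT array was the lower one in each pair, by -1.14, -0.75 and -0.46. The log2 difference was -0.78 ± 0.57 (SE; limma adjusted p = 0.753), and with the replicate block the unadjusted limma p was 0.00333 (adjusted p = 0.206). rpl20 likewise ranged from 5.59 to 6.89 over the DMF arrays, while its 3 pair differences were -0.37, -0.34 and -0.32.

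rpl33 (ArthCp043) varied least over the DMF arrays, at 10.91, 11.03 and 10.89, and stood at 10.39, 11.08 and 10.37 with TNT. TNT replicates 1 and 3 lay below all DMF arrays and TNT replicate 2 above them. The log2 difference was -0.33 ± 0.21 (SE) over all 6 arrays, and -0.56 without TNT replicate 2, where it did not pass (limma adjusted p = 0.0531). rpl32 (ArthCp072) stood at 9.84, 10.43 and 9.76 with DMF and at 9.80, 10.49 and 9.45 with TNT. Its groups overlapped, and the sign of its difference turned positive when signals were centred on the other plastid genes. rpl14 and rpl16 had differences of -0.46 and -0.39.

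Of the 8 small-subunit proteins, 7 had lower mean signals with TNT, and the median was -0.40; rps3 and rps18 turned positive with plastid centring, and rps4 without TNT replicate 1. rps16 (ArthCp004) stood at log2 signals of 6.89, 7.59 and 7.48 with DMF, against 5.96, 7.70 and 6.51 with TNT. TNT replicates 1 and 3 were below all DMF arrays and TNT replicate 2 was above them. Over all 6 arrays its log2 difference was -0.60 ± 0.42 (SE; limma adjusted p = 0.740). Without TNT replicate 2 it fell 2.12-fold (limma adjusted p = 0.0490), a call at the edge of the threshold that did not pass when the filter was also dropped (adjusted p = 0.0512).

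rps2 (ArthCp011), next to the polymerase genes on the plastid genome, stood at 9.08, 8.45 and 8.71 with DMF and at 8.06, 9.01 and 7.88 with TNT. Its pairs differed by -1.02, 0.56 and -0.84, so that pair 2 went the other way. Its log2 difference without TNT replicate 2 was -0.78 (limma adjusted p = 0.0599). rps3 (ArthCp061) stood at 10.43, 10.52 and 10.08 with DMF and 10.24, 10.37 and 9.65 with TNT, lower in each pair but with overlapping groups.

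rps15 (ArthCp081), the one gene with a higher mean, ranged widely, from 5.31 through 5.88 to 7.43 on DMF replicates 1, 2 and 3 and at 5.53, 6.43 and 6.96 with TNT. Both groups rank their replicates alike, and the pairs differed in sign, at 0.22, 0.55 and -0.47. The 95% interval of its difference ran from -1.19 to 1.39. With array weights the sign turned to -0.45. rps4, rps18 and rps19 had differences of -0.42, -0.23 and -0.40, and rps14, under the filter, of -0.40.

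The 4 RNA polymerase subunits had a median log2 difference of -0.65, from -0.90 for rpoB to -0.42 for rpoA. Their pair medians were -0.80, -0.09 and -0.98. rpoB (ArthCp014), which encodes the beta subunit, had the lowest difference of the 26 genes but low signals, at log2 values of 2.70, 4.74 and 5.13 with DMF, against 1.98, 4.23 and 3.65 with TNT. It was lower in each pair. Its signal on TNT replicate 1 lay below the highest bacterial control of that array, and it was the only one of the 26 genes under that control on any array. Without the filter its log2 difference was -0.90 ± 0.78 (SE; limma adjusted p = 0.952).

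rpoC1, the beta′ subunit, stood at 8.31, 9.58 and 9.15 with DMF and 7.43, 9.21 and 8.48 with TNT, lower in each pair by -0.88, -0.37 and -0.67. rpoC2, the beta″ subunit, stood at 6.09, 6.63 and 6.75 with DMF and 4.81, 6.83 and 5.85 with TNT, so that TNT replicate 2 was again the high one. Without TNT replicate 2 the differences were -1.06 for rpoC1 and -1.16 for rpoC2, and neither passed in limma (adjusted p = 0.178 and 0.0851).

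rpoA (ArthCp055), the alpha subunit, lies apart from the rpoB operon, and its replicates had another order. Its log2 signals were 9.38, 8.20 and 7.30 with DMF and 8.98, 8.39 and 6.24 with TNT. Replicate 1 was the highest and replicate 3 the lowest in both groups, a span of 2.08 with DMF that exceeds its difference of -0.42 ± 0.74 (SE).

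matK (ArthCp003), the maturase that helps to splice plastid group II introns, stood at log2 signals of 10.14, 10.71 and 10.56 with DMF, against 9.27, 10.81 and 9.35 with TNT. TNT replicates 1 and 3 lay clearly below the DMF arrays and TNT replicate 2 just above them. Over all 6 arrays the log2 difference was -0.66 ± 0.39 (SE; limma adjusted p = 0.688). Without TNT replicate 2 matK fell 2.24-fold (limma adjusted p = 0.0134), and with the filter dropped as well the adjusted p was 0.0148.

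The 2 genes that fell without TNT replicate 2, rps16 and matK, are next to each other in the plastid gene order. That comparison called 3.25% of all probe sets lower. Without both arrays numbered 2, limma called 3 of the 24 genes lower, against 4.97% of all probe sets. These were matK (adjusted p = 0.0128), rps2 (adjusted p = 0.0204) and rpl33 (adjusted p = 0.0353), while rps16 had an adjusted p of 0.0734. P-values of that comparison can also be too small. Array weights gave TNT replicate 2 a weight of 0.26, TNT replicate 3 one of 2.78 and DMF replicate 3 one of 5.00. The weighted comparison thus rests mostly on the arrays numbered 3. Its weights come from the same values, so its p-values can be too small. It called 6 of the 24 lower, against 11.4% of all probe sets. Those 6 were rpl22, rpl33, rps2, rps16, rpoC2 and matK.

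**Figure D3:**
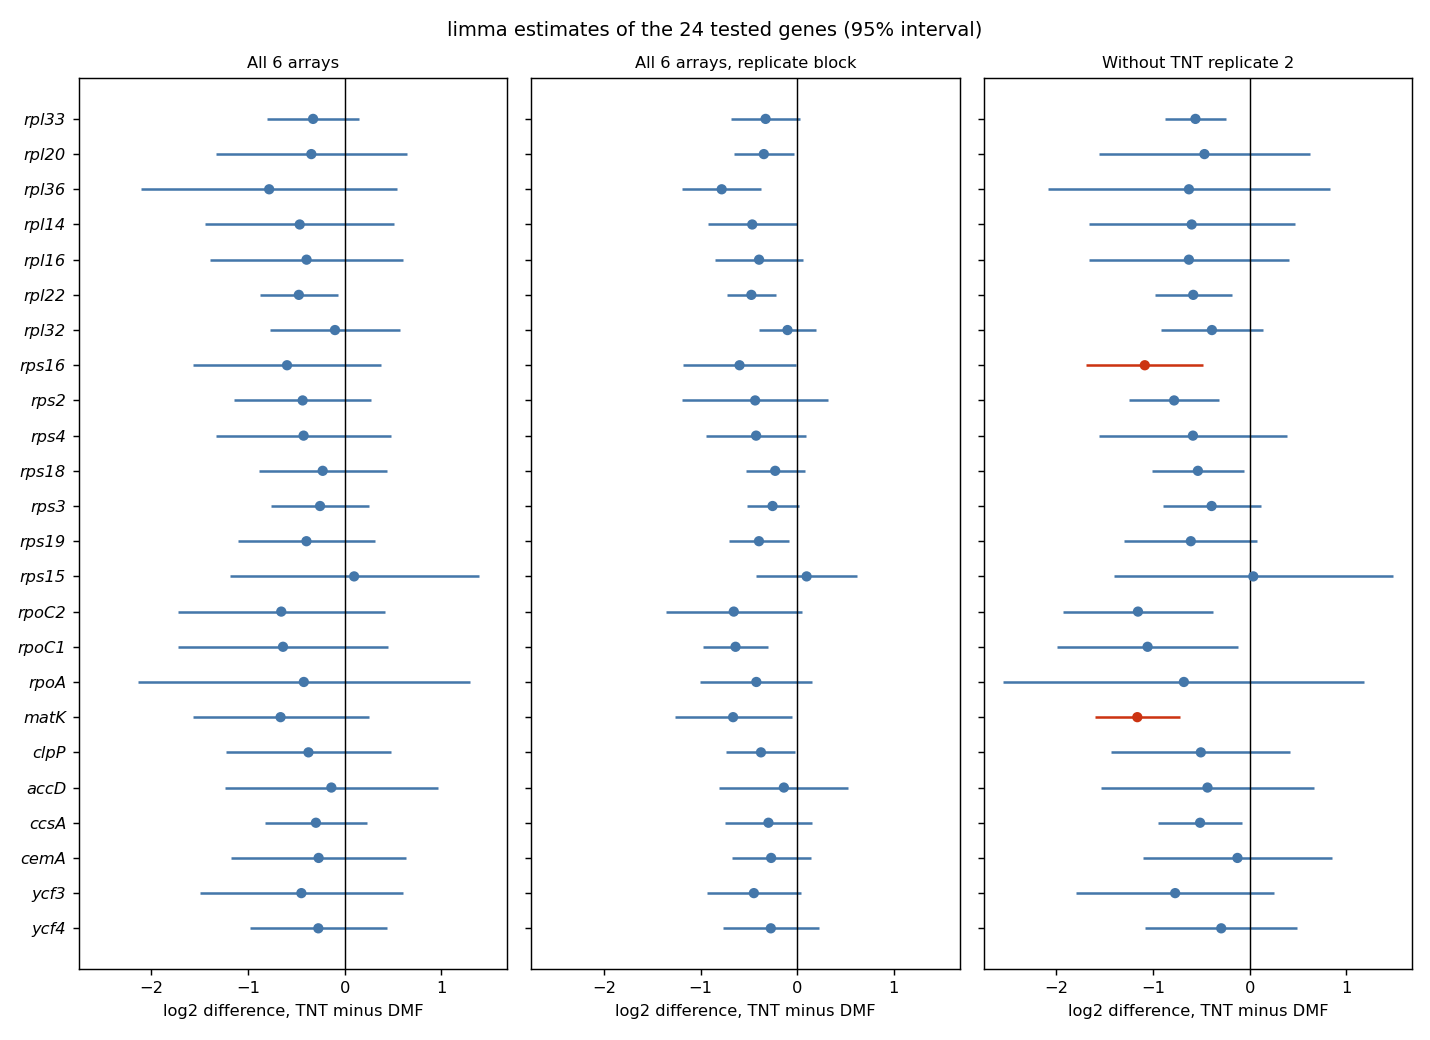
Log2 difference, TNT minus DMF (x axis), with 95% intervals from limma for the 24 tested genes, over all 6 arrays, with the replicate block, and without TNT replicate 2. Red marks an adjusted p under 0.05, which only rps16 and matK reach, in the right panel; blue marks the rest.

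clpP (ArthCp048), the proteolytic subunit of the plastid Clp protease, stood at 9.99, 10.50 and 10.85 with DMF and 9.24, 10.33 and 10.63 with TNT. Each TNT array was below its DMF partner, by -0.75, -0.16 and -0.21, while the groups overlapped (limma adjusted p = 0.827). accD (ArthCp031) encodes the carboxyltransferase beta subunit of acetyl-CoA carboxylase, the enzyme that opens fatty acid synthesis. It stood at 6.10, 6.37 and 7.15 with DMF and 5.29, 7.00 and 6.91 with TNT, with pair differences of -0.81, 0.63 and -0.24 that do not share a sign. The log2 difference of accD over all 6 arrays was -0.14.

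ccsA (ArthCp073), needed to attach heme to c-type cytochromes, was steady with DMF, at 9.78, 9.78 and 9.99, and stood at 9.07, 9.98 and 9.60 with TNT. Its difference was -0.30 ± 0.23 (SE). cemA (ArthCp034), a protein of the inner envelope, stood at 9.94, 8.38 and 8.93 with DMF and 9.31, 8.52 and 8.59 with TNT. ycf4 (ArthCp033), an assembly factor of photosystem I, stood at 8.99, 7.82 and 8.28 with DMF and 8.40, 8.13 and 7.74 with TNT. Both were highest on replicate 1, in either group, as was petA of cytochrome f, the next gene after cemA, at 10.53, 8.66 and 8.96 with DMF and 10.38, 8.97 and 8.66 with TNT. ycf3 (ArthCp023), the other photosystem I assembly factor, stood at 5.55, 6.33 and 6.68 with DMF and 4.76, 6.39 and 6.07 with TNT, lowest on replicate 1 in both groups. ycf3 and ycf4 had differences of -0.45 and -0.27.

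Position was not used in choosing the genes. In the order of plastid protein-coding genes, 20 of the 26 lie next to another of them. The ribosomal protein cluster from rps19 to rpoA holds 7 of them, with a median log2 difference of -0.42. Within it rps19, rpl22, rps3, rpl14 and rpl36 were lower in all 3 pairs, and the median of pair 2 was -0.21, against 0.04 over the 26 genes. rpl16 and rpoA, the other two, were higher in pair 2, by 0.02 and 0.19. The 5 genes with an intron had a median of -0.45 and the 21 without one of -0.40. A grouping of 4 genes known to be read by the nuclear-encoded polymerase, rpoB, rpoC1, rpoC2 and accD, had a median of -0.65. All but accD belong to the RNA polymerase class, which had the same median, while accD itself stood at -0.14. None of these groupings was tested.

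**Figure D4:**
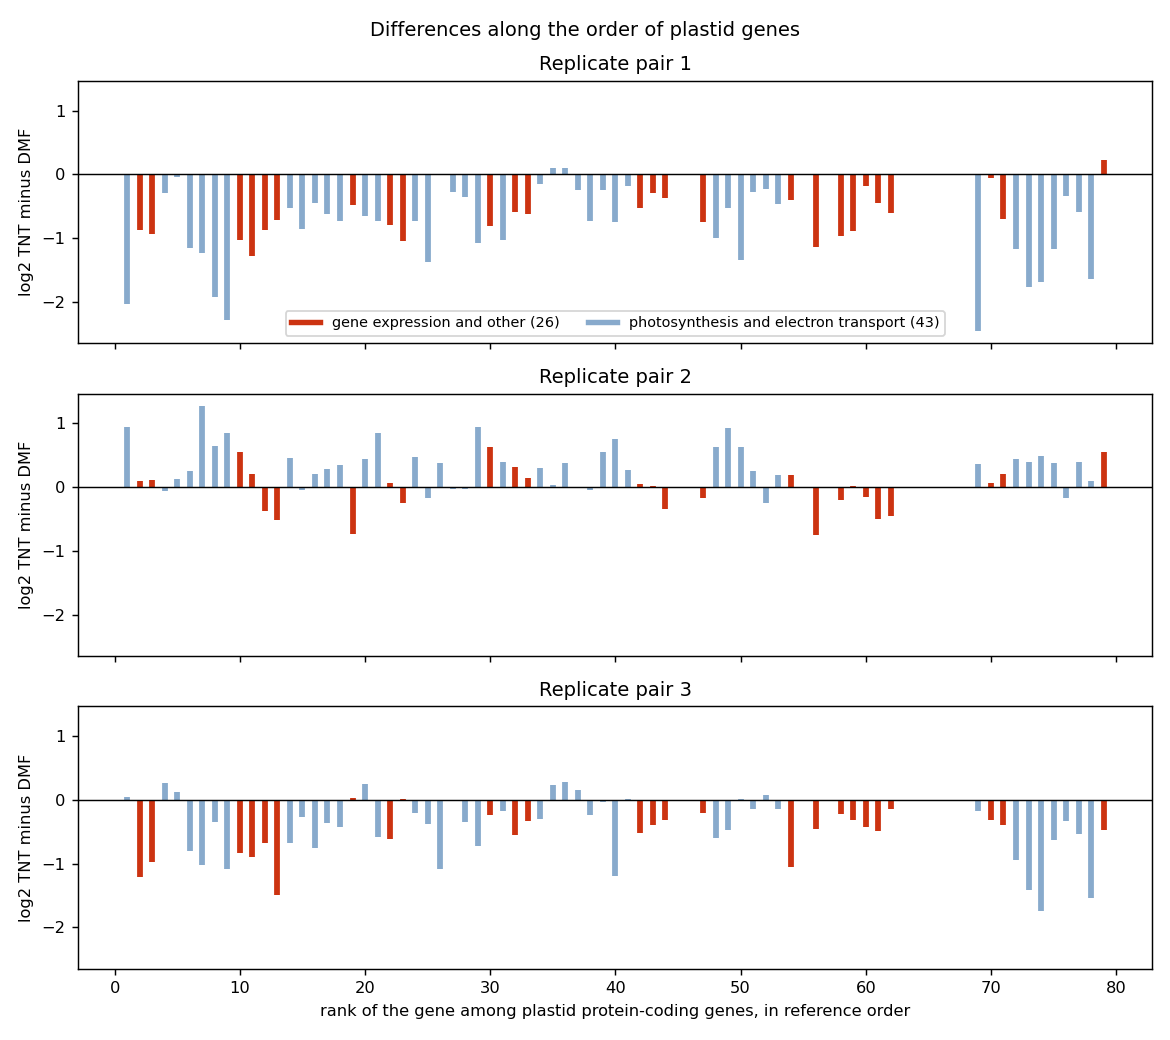
Difference in log2 signal, TNT minus DMF (y axis), for 26 genes of gene expression and other roles (red) and 43 of photosynthesis and electron transport (blue), placed by their rank in the reference order of plastid protein-coding genes (x axis), in replicate pairs 1, 2 and 3. Most bars point down in pairs 1 and 3, and in pair 2 most blue bars point up. Ranks with no bar have no probe set paired with 1 gene or a difference near 0.

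The other plastid genes, those of the photosystems, cytochrome b6f complex, ATP synthase, NDH complex and Rubisco, were also mostly lower. Of 43 probe sets 40 were tested, with a median log2 difference of -0.24 and 34 lower. Their pair medians over the 43 were -0.72, 0.37 and -0.34, so in pair 2 they were mostly higher, with 9 of 43 lower. At the unadjusted threshold with the replicate block 3 of the 40 were lower, and without TNT replicate 2 none of the 40 was called lower, though 8 were lower at the unadjusted threshold. With array weights 5 of the 40 were called lower, and 1 without both arrays numbered 2. Groups that did not overlap, with TNT lower, were found for 1 of the 40. Their extremes were ndhH and ndhE of the NDH complex at -1.03 and -0.98, and psbL and psbJ of photosystem II at 0.25 and 0.13. The difference between the 2 plastid gene groups was not tested.

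The mitochondrion-encoded genes, the other organelle set on the array, had a median of -0.04 over 15 tested probe sets, of which 9 were lower. Among all 23, cox2 and nad1 were highest at 0.37 and 0.48, and nad2 and matR lowest at -0.94 and -0.71; all but cox2 were under the filter.

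**Figure D5:**
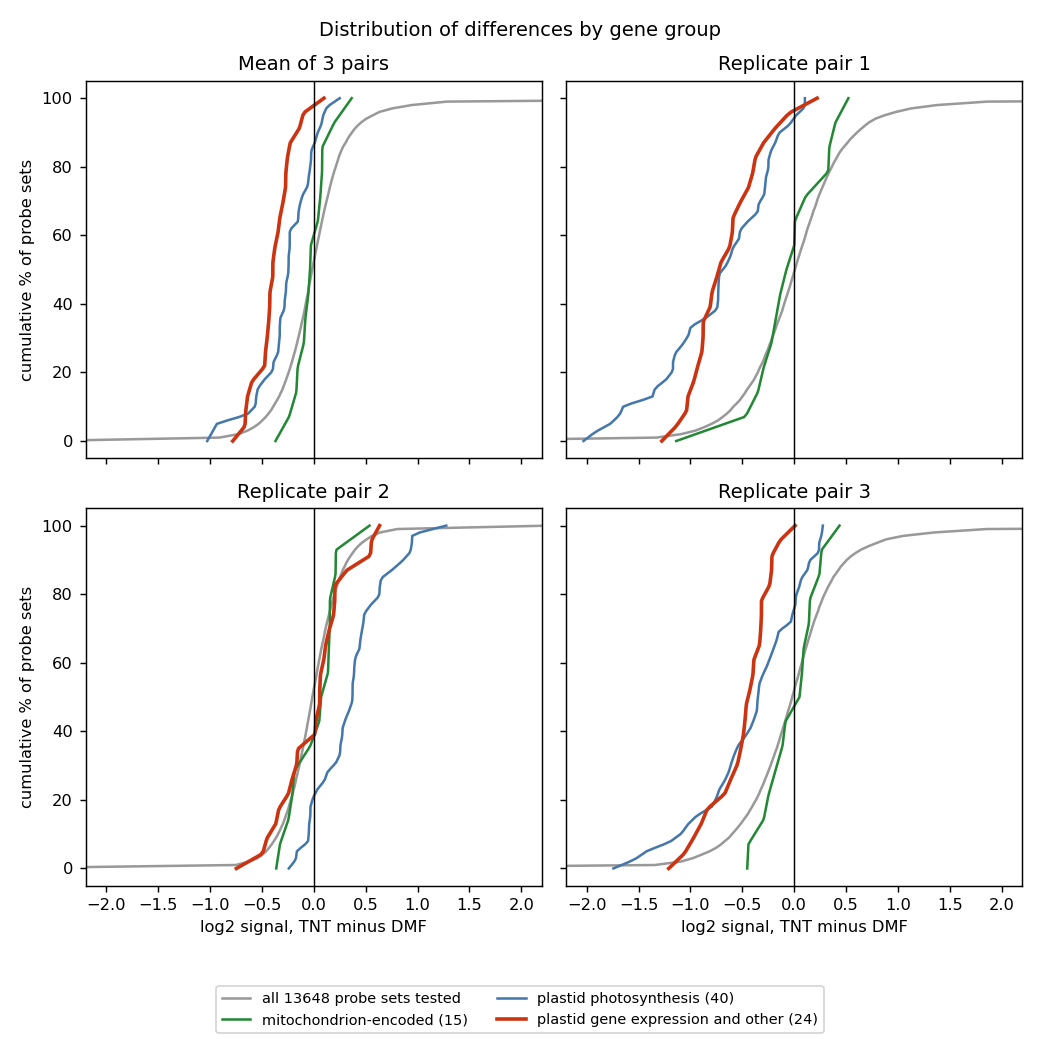
Cumulative percentage of probe sets (y axis) against the log2 difference, TNT minus DMF (x axis), for the 24 tested genes of gene expression and other roles, 40 of plastid photosynthesis, 15 of the mitochondrion and all 13648 tested, as the mean of 3 pairs and by pair. Most of the red line lies left of the grey one except in pair 2, where the 2 lie close together and the blue line is shifted right.

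Few nuclear genes of plastid gene expression have a probe set paired with them alone, and none of those tested was called over all 6 arrays with equal weights or without TNT replicate 2. Array weights called OTP84 lower, at a log2 difference of -0.73 (limma adjusted p = 0.0130), and FUG1, at -0.51 (limma adjusted p = 0.0102). That weighted comparison, whose p-values can be too small, called 11.4% of all probe sets lower. OTP84 (AT3G57430), an editing factor of plastid RNA, stood at 5.13, 5.39 and 5.41 with DMF and 4.62, 4.77 and 4.64 with TNT, so that the groups did not overlap. Its log2 difference was -0.63, with a limma adjusted p of 0.523. OTP70 (AT4G25270), which acts in splicing of rpoC1, CAF1 (AT2G20020), of group II intron splicing, and OTP81 (AT2G29760), another editing factor, differed by -0.27, -0.02 and -0.12. OTP80, OTP85 and OTP86 were under the filter.

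FUG1 (AT1G17220), the plastid translation initiation factor, stood at 9.65, 9.28 and 9.59 with DMF and 8.99, 9.31 and 9.07 with TNT, a difference of -0.38 (limma adjusted p = 0.563). Without both arrays numbered 2 it was -0.59 and passed (limma adjusted p = 0.0317), where p-values can be too small. Without TNT replicate 2 alone FUG1 did not pass (limma adjusted p = 0.134). CLPP4 (AT5G45390), a nuclear-encoded partner of clpP, differed by -0.04, and CcdA (AT5G54290), which acts with ccsA in cytochrome assembly, by -0.37. Neither passed.

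Measures of tissue and RNA are set beside these results. Of 19 green tissue markers, 2 have a probe set paired with them alone, PRK and RCA, at log2 differences of -0.54 and -0.32. Their summed signal ranged from 4336 to 4993 with DMF and from 3178 to 3911 with TNT. Of 10 root markers, 3 do, EXPA7, EXPA18 and PYK10, at -0.87, -1.06 and -0.07, with a summed signal of 2826 to 3441 with DMF and 2690 to 3268 with TNT. PYK10 gave most of that sum, with signals of 2690 to 3339 with DMF and 2598 to 3214 with TNT. Over all 6 arrays with equal weights no marker passed, with limma adjusted p from 0.476 for EXPA18 to 0.931 for PYK10. Without TNT replicate 2, PRK (limma adjusted p = 0.0341) and EXPA18 (limma adjusted p = 0.0126) fell. For the ubiquitin control, the log2 signal at the 3′ end exceeded that at the 5′ end by 1.66 ± 0.05 on DMF arrays and by 1.21 ± 0.16 on TNT arrays (SD, n = 3). The exact permutation p, two-sided, was 0.1, the smallest that 3 against 3 arrays allow. The control for 25S ribosomal RNA was bright on both arrays numbered 1, with signals of 696.4 (DMF) and 965.5 (TNT); elsewhere it lay between 13.7 and 39.4. The part of tissue share, RNA quality and ribosomal RNA in the plastid values was not tested.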

How the data were processed

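Total RNA from 6 samples was labelled with biotin and hybridised to ATH1 arrays. The authors deposited linear signal intensity per probe set. The submitters' processing notes name MAS5 and GCOS; their versions are not known from the sources used here. The values show that every array had been scaled to a common trimmed mean, so a change in total RNA cannot be seen. MAS5 subtracts mismatch signal, which spreads low values widely on a log scale.

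Of 22810 probe sets, 64 controls were left out. Gene names came from the platform annotation, brought up to date by gene identifier with a TAIR10.1 table that also gave the gene order. Signals were taken to log2 with no offset, and the 13648 probe sets whose mean log2 signal reached the 40th percentile entered the test. The 2 groups were set against each other in limma 3.58.1 under R 4.3.3 (lmFit, eBayes with an intensity trend, two-sided) and Benjamini-Hochberg adjustment at 0.05 over all probe sets tested. The fit was also run on simulated data with independent noise, no replicate pairing and no array that stands apart. That run cannot show how the fit behaves on the paired arrays used here. An exact permutation test served for the array controls. Tables and plots were made in Python 3.11.15.

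The genes, classes and lists were chosen with earlier results of these data known. The genes whose values are given on every array were those with an unadjusted p under 0.05 or called without TNT replicate 2, the highest and lowest log2 difference of each class, the 3 widest and 3 narrowest ranges over DMF arrays, and those with 3 pair differences of 1 sign and at least 0.5 each. Other genes with values on every array were added after their values were seen.

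The replicate numbers come from the sample titles; 1 TNT title has none and was called replicate 1, since 2 and 3 were taken. Across probe sets, same-numbered arrays deviated together from their group means, with correlations of 0.54 (number 1), 0.47 (number 2) and 0.43 (number 3), so the numbers were taken to pair the samples. Arrays with different numbers were not compared in this way. The titles state no pairing, so the pair differences and the p-values with the replicate block depend on this reading. Alternatives were no filter, the 60th percentile, an offset of 16, quantile normalization, median centring, centring on the other plastid genes, no intensity trend, array weights, the replicate block, 1-gene probe sets only, and arrays or replicate numbers left out in turn. Leaving out TNT replicate 2 with no filter was added after seeing the data. Sequences are not shown.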

Additional observations from a re-analysis of the deposited data

How the results depend on the processing

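The number of arrays limits the precision. The count of 0 called probe sets became 40 with centring on the other plastid genes, which moved the median log2 difference of all tested probe sets to 0.26, and 2896 with array weights. It ranged from 0 to 1374 with arrays or replicate numbers left out, with 3 without DMF replicate 2, 947 without TNT replicate 2 and 1374 without both arrays numbered 2. Of the plastid genes described, 6 were called lower with array weights, against 1560 of all 13648 probe sets tested, and 0 to 3 with arrays left out. Under any alternative run 0 were called higher. The 1 gene lower at an unadjusted p under 0.05 became 9 with the replicate block, 8 with array weights, 0 with quantile normalization, 0 with plastid centring and 0 to 9 with arrays left out. Counts over all probe sets tested also rose, from 566 to 1185 with the block, 2632 with array weights and 1606 without TNT replicate 2. The median difference of the 24 plastid genes, -0.39 over all 6 arrays, ranged from -0.59 to -0.13 with arrays left out and was -0.12 with plastid centring. With plastid centring 6 of the 24 log2 differences turned positive, to 0.18 for rpl32, 0.0492 for rps18, 0.0219 for rps3, 0.14 for accD, 0.0072 for cemA and 0.0040 for ycf4, and with array weights rps15 turned to -0.45. With arrays left out the sign turned for 12 of the 24, within -0.73 to 0.0534 for rpl20, -0.81 to 0.0171 for rpl14, -0.67 to 0.11 for rpl16, -0.75 to 0.0601 for rps4, -0.39 to 0.13 for rpl32, -0.35 to 0.71 for rps15, -0.98 to 0.39 for rpoA, -0.66 to 0.039 for clpP, -0.52 to 0.42 for accD, -0.62 to 0.16 for cemA, -0.77 to 0.0423 for ycf3 and -0.57 to 0.0413 for ycf4. The cause of these changes was not tested. One value per gene was not run, since each gene has 1 probe set.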
